A study of Mus musculus with 8 samples.

Results

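In reprogramming mouse embryonic fibroblasts (MEFs), 1448 genomic regions carried a peak of FLAG-tagged NANOG and a peak of BRG1 when wild-type NANOG was delivered, and neither peak when NANOG fused to a BRG1-interacting domain was delivered. They were chosen by measured values. Overlapping or touching peaks of 4 lists (FLAG and BRG1 in each arm) were merged into 93352 regions, and those with both NanogWT peaks and no NanogBiD FLAG or BRG1 peak were kept, which was 1.55% of all regions. Absence here means no listed peak, and every list ended at a peak score of 50 (10 times the −log10 of the caller's p), so weaker signal below that score is not seen.

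All libraries came from MEFs that carry an Oct4-GFP reporter (OG2 males crossed to 129 females, embryos of E13.5), infected with pMXs retroviruses and collected on day 5 of culture in iCD3 medium. The groups labelled Nanog+Oct4 (NanogWT here) received wild-type Nanog with Oct4. The groups labelled NanogN70+Oct4 (NanogBiD here) received Nanog with the BRG1-interacting domain of SS18 joined to its N-terminus, also with Oct4, so Oct4 was common to both arms. Each arm was profiled by CUT&Tag, in which Tn5 transposase tethered by an antibody cuts and tags DNA near its target, with antibodies to the FLAG tag, to BRG1 and to the histone marks H3K27ac and H3K4me1. There was 1 library per arm and target, 8 in all, so no difference between the arms has a replicate check and no p-value is given. The 95% Wilson intervals below cover counting error over regions only, and the share of infected cells in each library is not given in the sources used here.

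NANOG is a homeodomain transcription factor of the pluripotency network. BRG1 is the ATPase of the BAF (SWI/SNF) remodeling complex, which moves nucleosomes, and SS18 is a subunit of that complex. H3K4me1 marks enhancers in general and H3K27ac marks active enhancers and promoters. In fibroblasts, AP-1, TEAD and RUNX factors are known occupants of such enhancers, and BAF is known to be brought to them by AP-1.

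The lists held between 30859 peaks (NanogWT BRG1) and 74782 peaks (NanogBiD FLAG), with 58940 for NanogWT FLAG and 53748 for NanogBiD BRG1. The longer NanogBiD lists in both targets leave fewer places for a NanogWT-only region. The study's reporting form gives fewer sequenced pairs for NanogWT than for NanogBiD in FLAG, by far, and in BRG1, and more for NanogWT in both histone marks. The order of depth matches that of list length for FLAG, BRG1 and H3K4me1 but not for H3K27ac, whose NanogWT list was the shorter (35452 against 42598 peaks). The part of depth in the shares of regions without a peak in the other arm, and in the loss of marks given below, was not tested. H3K27ac peaks stood at the promoters of 6 of 7 fibroblast genes (Col1a1, Col1a2, Col3a1, Twist1, Thy1 and Vim, but not Prrx1) in each arm. Of 7 genes of other cell types, none had one in NanogWT, while Ptprc (24 tags), Pax6 (12 tags) and Cdh5 (11 tags) had one in NanogBiD. The part of those cells or loci in the results below was not tested.

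The DNA under the regions is shown first for the 6 with the highest rank, where the rank is set by the lower of the NanogWT FLAG and BRG1 scores. Each window runs 60 bp to either side of the NanogWT FLAG summit (mm10, plus strand) and is named by the nearest protein-coding gene. Capitals mark matches on either strand to the letters of AP-1 (TGACTCA), TEAD (GGAATG), RUNX (TGTGGTT) and the OCT octamer (ATGCAAAT), which bind FOS and JUN dimers, TEAD factors, RUNX factors and POU factors such as OCT4.

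Tmpo, chr10:91261308-91261428: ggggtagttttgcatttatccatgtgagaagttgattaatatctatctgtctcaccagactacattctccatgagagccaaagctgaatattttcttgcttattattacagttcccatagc
Eipr1, chr12:29137252-29137372: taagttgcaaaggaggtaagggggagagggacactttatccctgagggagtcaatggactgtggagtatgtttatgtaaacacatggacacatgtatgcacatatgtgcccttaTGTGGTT
Pdcd6ip, chr9:113589508-113589628: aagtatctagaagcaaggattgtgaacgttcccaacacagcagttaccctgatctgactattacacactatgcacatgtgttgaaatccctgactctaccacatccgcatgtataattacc
Ccdc177, chr12:80745895-80746015: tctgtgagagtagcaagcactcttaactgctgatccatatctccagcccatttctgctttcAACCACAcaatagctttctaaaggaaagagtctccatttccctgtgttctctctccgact
Il18r1, chr1:40485529-40485649: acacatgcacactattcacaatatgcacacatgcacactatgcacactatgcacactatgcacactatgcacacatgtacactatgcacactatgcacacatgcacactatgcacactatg
Clec14a, chr12:58556390-58556510: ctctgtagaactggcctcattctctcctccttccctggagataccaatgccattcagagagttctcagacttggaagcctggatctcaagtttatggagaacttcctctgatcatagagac

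None of these 6 windows held an AP-1, TEAD or octamer match, and 2 held a RUNX match, near Eipr1 and near Ccdc177. The window in an intron of Il18r1 is a short tandem repeat, and 94 of its 121 bases are masked as repeat in the genome. The next windows are the 3 highest-ranked with an AP-1 match within 50 bp of the summit, shown because AP-1 letters were about 3 times as frequent at these summits as 1 kb away.

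Cdh20, chr1:103421072-103421192: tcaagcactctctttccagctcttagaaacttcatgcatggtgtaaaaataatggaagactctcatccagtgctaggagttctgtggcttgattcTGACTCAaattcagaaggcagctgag
Ankrd33b, chr15:31375311-31375431: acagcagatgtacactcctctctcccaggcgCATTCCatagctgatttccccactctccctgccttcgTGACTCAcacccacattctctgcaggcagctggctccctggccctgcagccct
Hnrnpa2b1, chr6:51460316-51460436: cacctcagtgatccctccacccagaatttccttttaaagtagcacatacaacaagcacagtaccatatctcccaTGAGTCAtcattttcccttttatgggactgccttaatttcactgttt

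The last are the 3 highest-ranked with a TEAD match within 50 bp of the summit, a motif found at 9.12% of these regions and 6.34% of the regions shared by both arms.

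Itprid1, chr6:55836555-55836675: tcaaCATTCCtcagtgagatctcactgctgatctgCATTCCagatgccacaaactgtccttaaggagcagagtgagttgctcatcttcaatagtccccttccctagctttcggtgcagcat
Rybp, chr6:100014046-100014166: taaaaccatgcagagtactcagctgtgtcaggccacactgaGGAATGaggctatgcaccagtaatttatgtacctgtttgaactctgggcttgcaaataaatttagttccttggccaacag
Zfx, chrX:94048115-94048235: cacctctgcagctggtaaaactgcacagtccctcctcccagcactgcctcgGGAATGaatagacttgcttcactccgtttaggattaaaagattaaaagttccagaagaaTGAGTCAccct

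The windows near Ankrd33b and Zfx held both an AP-1 and a TEAD match, and the window near Itprid1 held 2 TEAD matches. A match describes letters and does not show that a factor was bound.

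The NanogWT-only regions were weak among NanogWT regions, by the same values that chose them. The summit height, the number of overlapping tags at a peak's highest point, had a median of 12 tags for FLAG (quartiles 10 and 16) and 10 tags for BRG1 (quartiles 9 and 12). Regions with both peaks in both arms had NanogWT medians of 20 tags and 15 tags. Widths also differed, with a median of 984.0 bp against 1615 bp.

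Of the 25722 regions with FLAG and BRG1 peaks in NanogWT, 5.63% (interval 5.35 to 5.92) lacked both in NanogBiD, 85.9% had both there, 5.55% had FLAG alone and 2.97% had BRG1 alone. The share without either fell step by step with height. Where the lower of the 2 NanogWT heights was 6 to 7 tags it was 17.6% (125 of 710), at 12 to 14 tags 4.17% (237 of 5679), and at 20 tags or more 0.222% (10 of 4515). In the opposite direction 21.6% of the 47946 regions with both peaks in NanogBiD had neither in NanogWT. These shares come from lists of unlike length. When each list was limited to its 20000 peaks of highest score, 13.7% (13.1 to 14.3) of NanogWT FLAG and BRG1 regions lacked both in NanogBiD.

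**Figure D1:**
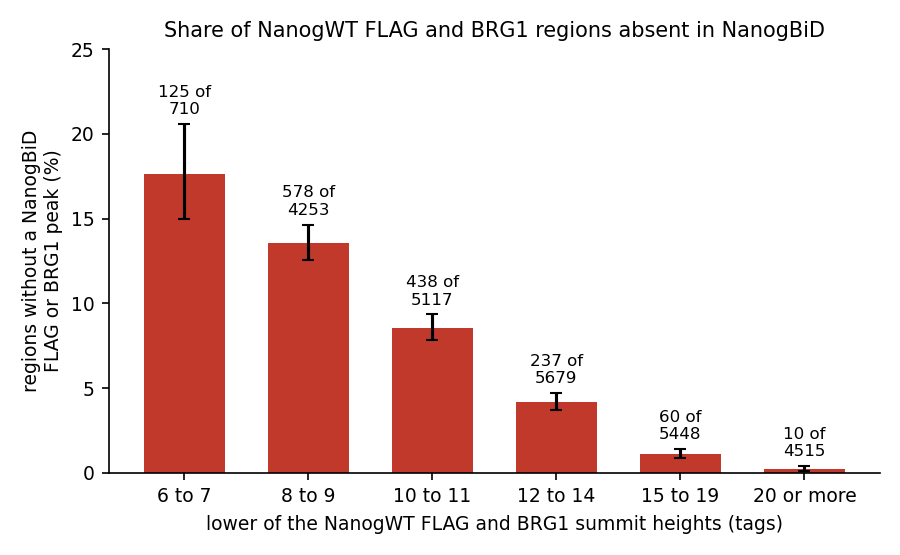
Percent of regions with NanogWT FLAG and BRG1 peaks that had no NanogBiD FLAG or BRG1 peak (y axis), by the lower of the 2 NanogWT summit heights in tags (x axis). Bars give the share, lines the 95% Wilson interval, and the numbers the regions counted, and the share falls from 17.6% at 6 to 7 tags to 0.222% at 20 tags or more.

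At the threshold itself, the 5 members of lowest rank had lower scores of 50 to 50.04. They lay near Stat3 (FLAG 9 tags, BRG1 11 tags), Dcakd (8 and 16 tags), Sdk1 (13 and 8 tags), Alg10b (8 and 7 tags) and Stard10 (12 and 8 tags). The 5 regions just outside each had a single NanogBiD peak, of score 50.01 to 50.10. They lay near Zmym2, Cdk14, Esr1, Cfap44 and Myof, and their NanogBiD summits held 17, 17, 7, 11 and 14 tags. These 2 sets meet different limits, that of the NanogWT lists and that of the NanogBiD lists. In NanogWT the 5 outside regions had lower scores of 52.75 to 88.68, all above those of the 5 lowest members.

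The distance between FLAG and BRG1 summits, which is limited by the merging of peaks that overlap or touch, had a median of 115.0 bp and was within 100 bp in 45.4% of the regions (interval 42.9 to 48.0), against 50.2% (49.5 to 50.8) in regions shared by both arms. The nearest NanogBiD FLAG or BRG1 peak was a median of 6.382 kb away. It was within 500 bp for 84 regions (5.80%) and within 5000 bp for 603 (41.6%). For regions with FLAG in NanogWT alone and no BRG1 the median was 8.165 kb, with 5.03% and 34.3% within those distances. A region with peaks in NanogBiD only lay within 50 kb of 41.2% of the NanogWT-only regions and of 41.7% of all regions, a share near that background. Another NanogWT-only region lay within 50 kb of 11.6% (10.05 to 13.4), against 8.25% for all regions.

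The histone mark libraries were not used to choose the regions. An H3K27ac peak was listed in 928 of the 1448 regions in NanogWT and in 527 in NanogBiD. For H3K4me1 the counts were 1111 and 665. The peak of H3K27ac was present in NanogWT and absent in NanogBiD at 472 regions (32.6%), where the share over all 93352 regions was 5.25%. The opposite change was seen at 71 regions (4.90%), against 13.1% over all. H3K4me1 was lost at 507 regions (35.0%), against 13.9%, and gained at 61 (4.21%), against 9.52%. When each list was limited to its 20000 peaks of highest score, H3K4me1 was lost at 15.2% and gained at 7.71% of the regions then selected, and lost at 8.34% of shared regions. Both marks therefore went mostly one way here, while over all regions H3K27ac was gained more often than lost.

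Losses of the marks only partly coincided. Both were lost at 211 regions (14.6%, interval 12.8 to 16.5), which was 0.883% in regions shared by both arms. H3K27ac was lost and H3K4me1 kept at 158 regions (10.9%, against 1.53% in shared regions). H3K27ac was kept and H3K4me1 lost at 112 (7.73%, interval 6.47 to 9.22), near the 7.17% of shared regions. Both were kept at 271 regions (18.7%), against 66.4% in shared regions, and 130 regions (8.98%, against 1.32%) had no mark in either arm. A further 169 regions (11.7%, against 0.942%) lost H3K4me1 without H3K27ac in either arm.

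**Figure D2:**
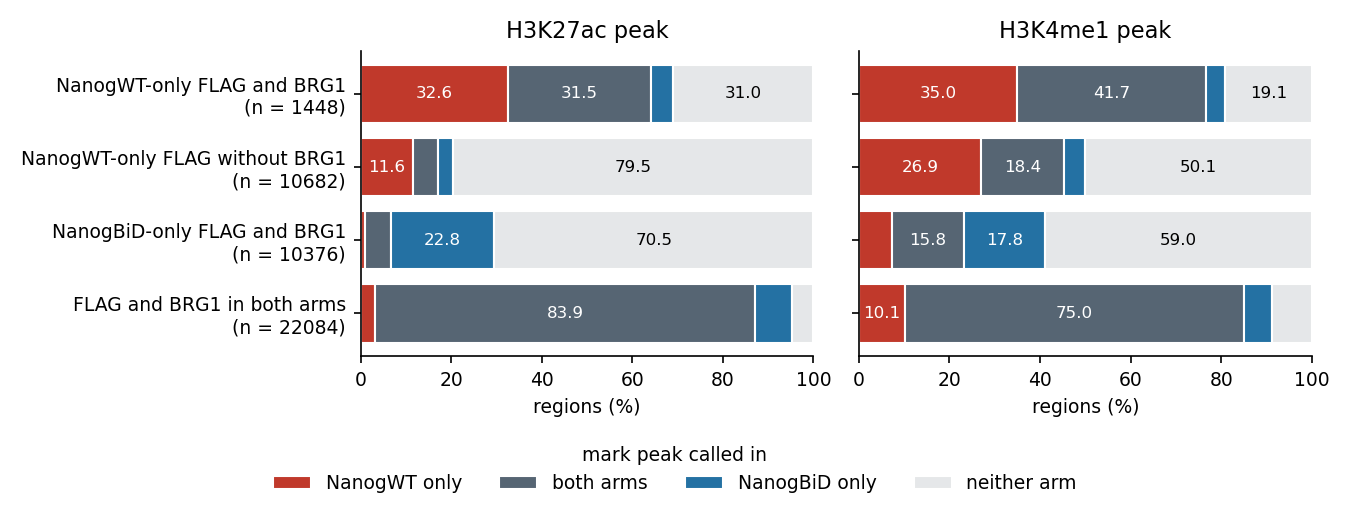
Percent of regions (x axis) by whether an H3K27ac peak (left) or H3K4me1 peak (right) was called in NanogWT only, both arms, NanogBiD only or neither, for 4 classes of region (y axis) set by their FLAG and BRG1 peaks. The top bar, the 1448 NanogWT-only regions, has the largest NanogWT-only share in both panels, 32.6% and 35.0%.

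Among regions with FLAG in NanogWT alone, those with and without BRG1 differed in their marks. The 10682 regions with a FLAG peak in NanogWT alone and no BRG1 peak in either arm had H3K27ac in NanogWT in only 17.2% and lost it in 11.6%. Where marked, they lost H3K27ac more often, in 67.4% of 1832 against 50.9% of 928 in the regions with BRG1. Regions with peaks in both arms lost it in 3.73% of 19252. In H3K4me1 the same shares of marked regions were 59.5%, 45.6% and 11.8%. Over all regions marked in NanogWT, H3K27ac was lost at 15.3% of 32112 and H3K4me1 at 27.7% of 46762. The 10682 regions without BRG1 also had lower FLAG summits (median 10 tags against 12). They lay more often away from promoters (85.9% against 74.0%). The shares above are not matched for these or for mark height, and their part was not tested.

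The mark was lost more often than in shared regions at every height of the mark. Among regions whose NanogWT H3K27ac summit held 7 to 11 tags, 69.7% of 198 lost it, against 14.1% of 1675 in shared regions. At 22 tags or more the shares were 24.1% of 116 (17.3 to 32.7) and 0.772% of 9450 (0.615 to 0.970). For H3K4me1 they were 76.2% of 63 against 33.7% of 499 at 7 to 11 tags, and 27.7% of 166 against 4.72% of 5026 at 22 tags or more. The intervals of the 2 classes did not overlap in any of the 5 height classes of either mark.

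**Figure D3:**
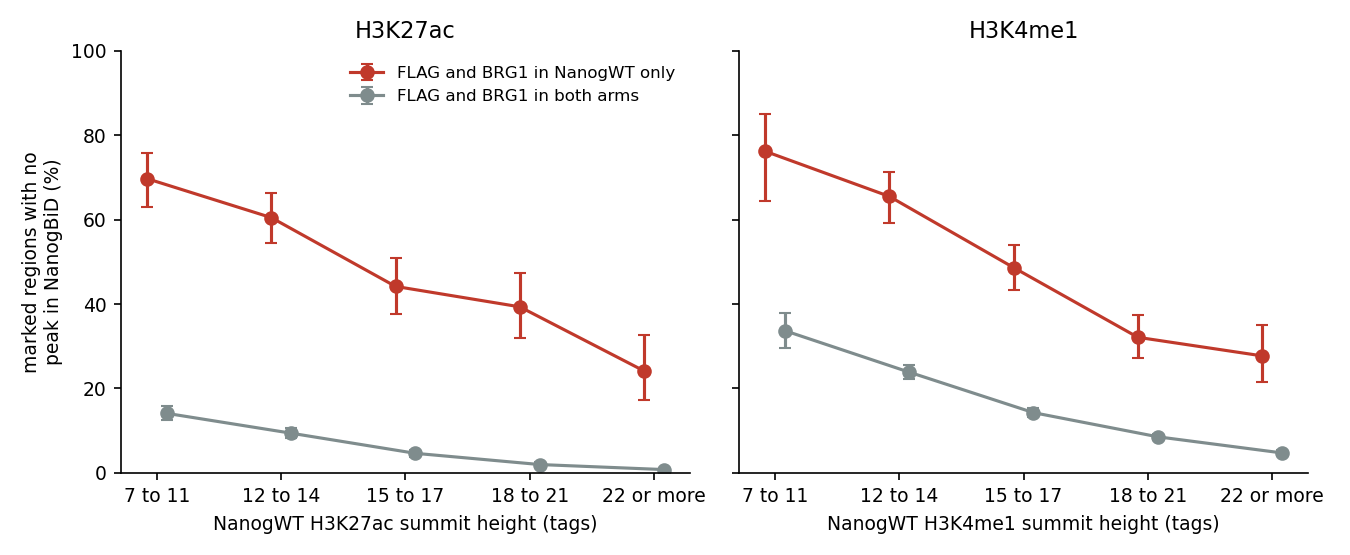
Percent of marked regions that had no peak of the mark in NanogBiD (y axis) by NanogWT summit height of the mark in tags (x axis), for H3K27ac (left) and H3K4me1 (right). Points are shares with 95% Wilson intervals, and the NanogWT-only regions (red) lie above the shared regions (grey) in all 5 height classes of both marks.

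Nor was the loss limited to the weakest FLAG and BRG1 regions. H3K27ac was lost at 32.8% of regions with a lower FLAG or BRG1 height of 6 to 7 tags, 29.2% at 8 to 9, 34.2% at 10 to 11 and 36.5% (31.3 to 42.0) at 12 or more. In shared regions the same classes gave 6.25%, 5.04%, 5.34% and 2.24%. H3K4me1 was lost at 46.4%, 36.0%, 30.4% and 35.2%, against 13.7%, 14.5%, 12.6% and 8.41% in shared regions.

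Where a mark was kept, its NanogBiD height relative to NanogWT was below that of all regions marked in both arms. H3K27ac height changed by a median of -0.14 on the log2 scale in 456 regions, while over all regions marked in both arms the median was 0.08, a difference of -0.22. Heights at least 1.5-fold lower in NanogBiD were found at 82 regions (17.98%), where 4.02% of all such regions were, and at least 1.5-fold higher at 13 (2.85%), where 9.70% were. H3K4me1 changed by a median of -0.38 in 604 regions, against -0.18 over all, and was at least 1.5-fold lower at 174 regions (28.8%), where 11.6% of all were. It was at least 1.5-fold higher at 0 of them, where 1.14% of all were. By height class the median of kept H3K27ac went from 0.14 at 7 to 11 NanogWT tags (60 regions) and 0 at 12 to 14 tags (102 regions) to -0.37 at 22 tags or more, where shared regions had 0.49, 0.28 and 0. For H3K4me1 it went from 0.24 at 7 to 11 tags (15 regions) to -0.55 at 22 tags or more, where shared regions had 0.35 and -0.34. Heights are raw tag counts not scaled to depth, so only the comparison with all regions of the same libraries is given a reading.

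The 12 highest-ranked regions show the range of these states. H3K27ac was lost at 7, kept at 3 and absent from both arms at 2, and H3K4me1 was lost at 5, kept at 6 and absent at 1. The first 3, the seventh and the eighth lay within 2 kb of an annotated start site of some transcript, and the other 7 did not. None of the 12 has a NanogBiD FLAG or BRG1 peak, by the rule, and the distance to a gene is that of the FLAG summit to the nearest protein-coding start site, which need not be the gene a region acts on.

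The highest-ranked, chr10:91260683-91261834, lies 80.05 kb from Tmpo, which encodes a nuclear envelope protein. It had 23 FLAG tags and 21 BRG1 tags in NanogWT, with H3K27ac at 16 and H3K4me1 at 12 tags, and no peak of either mark in NanogBiD. The second, chr12:29136743-29138353, is intergenic and 274.0 kb from Eipr1. It had 29 FLAG tags and 22 BRG1 tags, lost an H3K27ac peak of 21 tags, and kept H3K4me1 at 17 tags in NanogBiD against 30 in NanogWT. Both losses returned at the third, chr9:113588229-113590031, in an intron of the noncoding gene AU023762 and 67.73 kb from Pdcd6ip, which encodes the ESCRT-associated protein ALIX. There FLAG held 26 tags, BRG1 16, H3K27ac 15 and H3K4me1 16 in NanogWT.

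The fourth, chr12:80745626-80747093 near Ccdc177, had 17 FLAG and 18 BRG1 tags, lost H3K27ac of 20 tags and kept H3K4me1 at 15 tags against 24. The fifth, chr1:40485159-40486113, in an intron of Il18r1, the receptor of interleukin 18, had 18 FLAG and 15 BRG1 tags and no mark in either arm, and it is the tandem repeat shown above. The sixth, chr12:58555763-58556899, lies 287.2 kb from Clec14a, an endothelial lectin gene, and lost H3K27ac of 12 tags and H3K4me1 of 14 tags. The seventh, chr19:31947115-31948196, has its summit in the UTR of A1cf, an RNA-editing cofactor, and lost H3K27ac of 12 tags and H3K4me1 of 16 tags. It lay 0.772 kb from a NanogBiD peak, the closest of the 12.

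Marks were kept at the next 3. At the start of Sema6d, a semaphorin gene, chr2:124089667-124091139 had 14 FLAG and 9 BRG1 tags, with H3K27ac at 15 tags in NanogWT and 10 in NanogBiD. The region chr9:116502480-116503503, far from Rbms3, had H3K27ac at 20 and 13 tags and H3K4me1 at 20 and 12 tags. In Jph2, which encodes a junctophilin of muscle membranes, chr2:163385756-163387203 had H3K27ac at 25 and 16 tags and H3K4me1 at 22 and 12 tags. The last were an intron of the kinase gene Camk1d (chr2:5429570-5430655), which lost H3K27ac of 14 tags and kept H3K4me1 at 15 tags against 18, and an intron of the vesicle GTPase gene Rab3c (chr13:110201690-110202684), which lost H3K4me1 of 15 tags and had no H3K27ac.

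**Figure D4:**
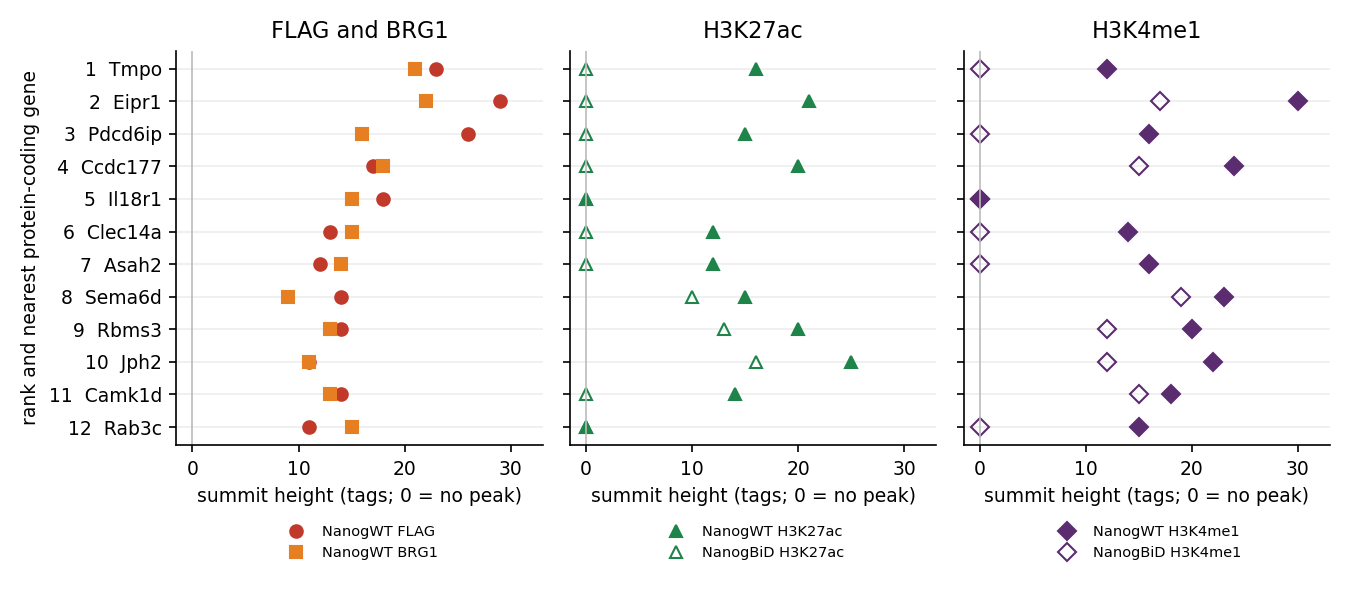
Summit height in tags (x axis) in each library for the 12 highest-ranked regions (y axis, rank and nearest protein-coding gene), with NanogWT as filled and NanogBiD as open markers and 0 for no peak. NanogBiD FLAG and BRG1 have no peak by the rule and H3K27ac is at 0 in NanogBiD for 9 regions. Heights are not scaled to depth, and over all regions marked in both arms the median NanogBiD height relative to NanogWT was 0.08 for H3K27ac and -0.18 for H3K4me1 (log2).

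H3K27ac gains were few. The 71 gained peaks had a NanogBiD median of 12 tags (quartiles 10 and 14, highest 27), and the 472 lost peaks a NanogWT median of 13 tags (quartiles 11 and 16). The 3 of highest rank lay near Castor2 (9 tags, while H3K4me1 of 12 tags was lost), near Rpl38 (13 tags, no H3K4me1) and near C2cd4a (10 tags, H3K4me1 at 15 and 12 tags).

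Most of the regions lay away from promoters. The share more than 2 kb from any annotated start site was 74.0% (71.7 to 76.2), close to 75.6% for all regions, above 50.2% for regions shared by both arms and below 86.3% for NanogBiD-only regions. The median distance from the summit to a start site was 10.29 kb. Summits fell in introns at 54.2% (51.6 to 56.8), compared with 40.5% in shared regions and 48.7% over all, and between genes at 32.9%. Another 3.25% lay in coding exons and 6.56% in UTRs. At promoters H3K27ac was lost in 21.3% of 376 regions (17.4 to 25.7) and away from them in 36.6% of 1072 (33.7 to 39.5), while shared regions lost it in 1.18% and 5.31%.

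Base composition set the NanogWT-only regions apart from NanogBiD-only ones. Within 50 bp of the FLAG summit the median G+C content was 48.5%, against 41.6% at NanogBiD-only and 51.5% at shared regions. Away from promoters the medians were 46.5%, 40.6% and 44.6%. Windows lying mostly in repeats made up 6.57% (5.40 to 7.96), against 20.8% for windows 1 kb away. This was near the 6.96% of all NanogWT FLAG summits (19.7% 1 kb away) and the 7.42% of NanogBiD-only summits.

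TEAD letters (GGAATG) were found within 50 bp of the FLAG summit at 132 of 1447 regions with sequence (9.12%, 7.75 to 10.7). The share was 5.60% in windows 1 kb away, 7.40% over all NanogWT FLAG summits, 6.34% (6.03 to 6.67) at shared regions and 6.54% (6.08 to 7.04) at NanogBiD-only regions. Away from promoters it was 9.90% (8.25 to 11.8), against 7.96% (7.47 to 8.48) at shared regions, and the intervals overlap. At regions with a lower height under 12 tags and away from promoters it was 10.1% (8.24 to 12.3), against 7.45% (6.76 to 8.21) at shared regions of the same kind. Those 2 intervals all but touch, and below 12 tags the NanogWT-only regions still included more of the lowest heights and had a higher G+C content (median 46.5% against 44.6%). At regions with FLAG in NanogWT alone and no BRG1 the share was 8.55%, inside the interval of the regions with BRG1.

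AP-1 letters (TGACTCA) were found at 81 regions (5.60%, 4.53 to 6.90), 3.12 times the 1.80% of windows 1 kb away. This was near the 5.82% of all NanogWT FLAG summits and below the 8.90% (8.36 to 9.46) of NanogBiD-only summits. Away from promoters the order was 6.44% (5.12 to 8.07) here, 8.95% at NanogBiD-only and 10.4% (9.80 to 10.9) at shared regions. RUNX letters (TGTGGTT) were found at 57 regions (3.94%, 3.05 to 5.07), against 2.53% (2.33 to 2.75) at shared regions and 3.68% at NanogBiD-only ones. The share was 2.70% 1 kb away and 3.14% over all NanogWT FLAG summits, the latter inside that interval. With a score of at least 100 in every list, the regions then selected had RUNX letters at 2.48% (1.55 to 3.93). The higher share over shared regions did not exceed counting error away from promoters, where it was 4.30% (3.23 to 5.68) against 3.50%.

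The letters of POU and homeodomain factors, the families of the delivered OCT4 and NANOG, were no more frequent than 1 kb away by more than counting error. The OCT octamer (ATGCAAAT) was found at 11 regions (0.760%, 0.425 to 1.36), the same share as 1 kb away. The other classes had it more often than their distant windows. NanogBiD-only summits had it at 3.60% (3.26 to 3.98), 5.84 times their distant windows. Shared regions had it at 1.608% (2.77 times) and all NanogWT FLAG summits at 1.807% (2.69 times). Regions with FLAG in NanogWT alone and no BRG1 had it at 1.395% (1.190 to 1.636), 2.04 times their distant windows. That interval overlaps the interval of the regions with BRG1. When each list was limited to its 20000 peaks of highest score, a setting that kept 99 of the 1448 regions among the 1660 it selected, the share was 1.93% (1.37 to 2.71). The homeodomain letters TAATGG were found at 3.18% (2.39 to 4.21), against 2.76% 1 kb away and 9.93% (9.37 to 10.5) at NanogBiD-only summits. Shared regions had a like share, 3.73%, with 3.86% 1 kb away. SOX letters (ACAATG and its variant ACAAAG) stood at 11.6% (10.1 to 13.4), near the 12.6% of distant windows and the 11.9% of shared regions, and at 19.6% of NanogBiD-only summits. Among the regions that lost H3K27ac the octamer share was 1.69% (8 of 472), and among those without H3K27ac in either arm 0.446% (2 of 448), with intervals that overlap.

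**Figure D5:**
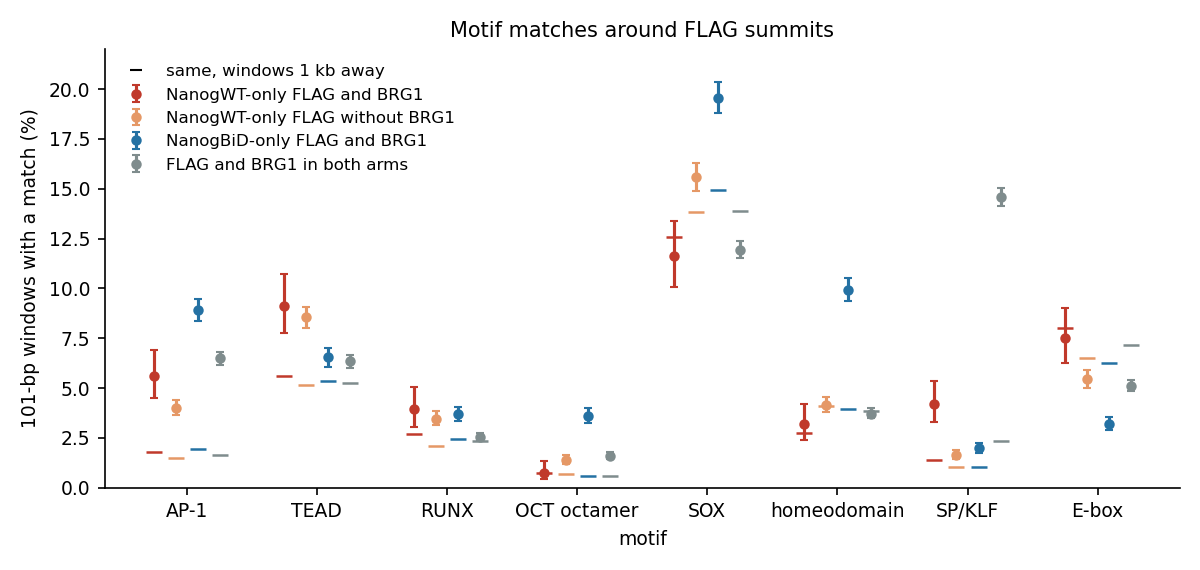
Percent of windows of 50 bp either side of the FLAG summit that hold a match (y axis) for 8 motifs (x axis) in 4 classes of region, with 95% Wilson intervals, and as dashes the same shares 1 kb downstream. The NanogWT-only regions (red) stand at 9.12% for TEAD, 0.760% for the OCT octamer and 3.18% for the homeodomain letters, the last close to the 3.73% of shared regions (grey).

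Of the other motifs searched, the E-box CACCTG was found at 7.53% (6.28 to 9.01), above the 5.12% of shared and the 3.20% of NanogBiD-only summits but not above the 8.02% of windows 1 kb away. SP/KLF letters (GGGCGG) were found at 4.22%, against 14.6% at shared regions, which lie more often at promoters, and away from promoters at 1.77% and 2.41%.

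C/EBP letters (TTGCNNAA) stood at 6.01%, AGATAA, the letters read by factors of the GATA family, at 3.39% and NFY (CCAAT) at 10.6%, the last 2 below their distant windows at 5.80% and 13.4%.

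ETS letters (CCGGAAGT) matched at 7 regions, CREB (TGACGTCA) at 2, the CArG box at 4, CTCF at 1 and NFI at 0 (upper bound of the interval 0.265%).

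The regions were spread over many genes. They were nearest to 1254 protein-coding genes, of which 1099 had 1 region, 126 had 2 and 29 had 3 or more. The most, 5 each, lay nearest to Rbfox1, Rbms3 and Zfp516, which have 103, 76 and 45 regions of any kind. Of the 3 densest loci within 50 kb, each with 3 regions, the one near Tmpo (chr10:91236944-91261834) held 3 NanogWT H3K27ac peaks and 1 in NanogBiD, and 3 NanogWT H3K4me1 peaks and 1 in NanogBiD. The locus at Tent4a (chr13:69488112-69531770) held 3 H3K27ac peaks in each arm. The locus near Crebbp (chr16:4259770-4290054), the gene of the acetyltransferase CBP, held 4 and 3.

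Of 14 gene lists, collagen and matrix genes were nearest to 18 regions (1.24%, 0.788 to 1.96), against 0.573% of all regions, at 17 of the 43 listed genes. H3K27ac was lost at 4 of the 18 and H3K4me1 at 8, where 32.6% and 35.0% of the 1448 regions lost them. Pluripotency genes were nearest to 10 regions (0.691%, 0.376 to 1.27, against 0.409% of all). The genes were Dppa3, Jarid2, Lefty2, Myc, Mycn, Nanog, Nr5a2, Tbx3 and Tfcp2l1, and H3K27ac was lost at 3 and kept at 3 of the regions. Those that lost it include the region on the Nanog coding exon, where tags from delivered copies and from the gene cannot be told apart. The intervals of the pluripotency list and of the next lists, except endoderm and trophoblast, included their share of all regions. Wnt and FGF genes had 10 regions (0.691% against 0.544%), TGF-beta and BMP genes 7 (0.483% in both) and fibroblast and mesenchymal genes 6 (0.414% against 0.482%). AP-1 and stress genes had 4 (0.276%, 0.108 to 0.708, against 0.175%), actin and contractile genes 3 (0.207% against 0.202%) and SWI/SNF subunits 3 (0.207% against 0.221%). Hippo and TEAD genes had 2 (0.138% against 0.206%) and RUNX genes 2 (0.138% against 0.145%). Lists of other cell types had 5 regions (endoderm and trophoblast, 0.345% with an interval of 0.148 to 0.806, against 0.120% of all), 3 (neural, 0.207% against 0.124%) and 0 (endothelial and blood, against 0.139% of all), and epithelial genes had 0, against 0.0739% of all. The interval of both zeros, 0 to 0.265%, includes those shares.

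The 20 highest-ranked regions at listed genes kept H3K27ac at 11, lost it at 6 and lacked it at 3. Of the 1448 regions, 31.5% kept it, 32.6% lost it and 31.0% lacked it in both arms. Among matrix genes, an intron of Lama4, a laminin chain of basement membranes (chr10:39049039-39050639), had 15 FLAG and 14 BRG1 tags and lost H3K27ac of 10 tags and H3K4me1 of 14 tags. The start of Col5a2, a fibrillar collagen gene (chr1:45502014-45503544), had 14 FLAG and 10 BRG1 tags and kept H3K27ac at 16 tags against 21. The start of the fibrillin gene Fbn2 kept both marks, H3K27ac at 13 tags against 16.

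Among signaling genes, Dkk3, a secreted Dickkopf family member (chr7:112157796-112158738), had 14 FLAG and 13 BRG1 tags in its coding sequence and kept H3K27ac at 15 tags against 14, the 1 kept case of the 20 in which NanogBiD was higher. An intron of Tgfbr3, the TGF-beta co-receptor betaglycan (chr5:107137219-107138404), kept H3K27ac at 10 tags against 16. Regions nearest to Smad7, an inhibitor of TGF-beta signaling, and to Runx3 also kept it, at 11 against 15 and 9 against 17 tags. The one nearest to Id2, an inhibitor of bHLH factors, 452.9 kb away (chr12:25549585-25550590), lost H3K27ac of 13 tags. The one nearest to the growth factor gene Fgf18 had no H3K27ac and kept H3K4me1 at 13 against 18 tags. Nearest to Jun, an AP-1 subunit gene, a region 46.30 kb away in an intron of Junos (chr4:95098080-95099449) kept H3K27ac at 14 against 18 tags.

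Chromatin genes were among them, and Arid1b and Bcl11a encode BAF subunits. An intron of Arid1b (chr17:5174591-5176377) had 23 FLAG and 14 BRG1 tags and kept H3K27ac at 16 against 21 tags. An intron of Bcl11a (chr11:24091309-24092142) had 17 FLAG and 8 BRG1 tags and H3K4me1 alone, at 14 against 20 tags. Jarid2, a PRC2 cofactor, had a region 329.4 kb away (chr13:44399447-44400378) with H3K27ac at 8 against 9 tags and a lost H3K4me1 peak of 13 tags. Neurog2, Foxa2 and Ncam1, from the lists of other cell types, were also among the nearest genes. The coding sequence of Neurog2 had no H3K27ac and H3K4me1 at 19 tags in both arms. The region nearest to Foxa2, 138.0 kb away, lost H3K27ac of 15 tags. The region nearest to Ncam1, 207.0 kb away, kept H3K27ac at 13 against 20 tags.

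Among pluripotency genes, the region nearest to Nr5a2, an orphan nuclear receptor of that network (chr1:137331423-137333112, 372.1 kb away), had 21 FLAG and 11 BRG1 tags and lost H3K27ac of 12 tags and H3K4me1 of 13 tags. Near Tbx3 (chr5:119216057-119216771, 454.3 kb away) H3K27ac of 15 tags was lost and H3K4me1 kept at 10 against 20 tags. Near Myc (chr15:62003399-62004490, 16.52 kb away) H3K27ac was kept at 15 against 23 tags.

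The region at Nanog itself (chr6:122711404-122711825) stood apart. It had 24 FLAG and 16 BRG1 tags, an H3K27ac peak of 39 tags, the highest of the 472 lost, and an H3K4me1 peak of 18 tags, with none in NanogBiD. The summits of the 4 NanogWT libraries lay within 3 bp of each other, inside a coding exon of 266 bases (122711538 to 122711803). The same held at a second coding exon of 411 bases (122713142 to 122713552), where the 4 NanogWT summits lay within 4 bp and held 23 to 47 tags, and where NanogBiD had peaks of FLAG (12 tags), BRG1 (9 tags) and H3K27ac (20 tags). The delivered retroviruses carry the Nanog coding sequence, so tags from integrated copies and from the gene cannot be told apart here. Without this region H3K27ac was lost at 32.5% and H3K4me1 at 35.0% of the remaining 1447.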

How the data were processed

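CUT&Tag was done on MEFs at day 5, with 1 library for each of 2 arms and 4 targets. Per the authors' methods, reads were trimmed (Trim Galore 0.6.4), aligned to mm10 (Bowtie2 2.4.5), filtered (SAMtools 1.16.1) and used for peak calling (MACS 1.4.2). The methods say that replicates were merged, while the study's reporting form says in general that experiments were repeated and, of CUT&Tag, that it was done once without biological replicates. The deposited peak lists hold a score (10 times the −log10 of the caller's p) and the deposited summit lists a signal (coverage, as tags at the summit), neither scaled to depth. Read totals are not in the lists. The reporting form tabulates sequenced pairs per library, used here only for their order.

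Peaks sharing at least 1 bp or touching were merged, and a mark was counted where its peak overlapped a region. Start sites came from GENCODE M21, promoters were 2 kb to either side, and sequence came from GRCm38. Motifs were searched on both strands, with windows 1 kb downstream as comparison. Shares have 95% Wilson intervals, and the merging and motif search were tested on simulated data (Python 3.11.15, NumPy 2.4.6, pyfaidx 0.9.0.4). Named regions were the highest-ranked overall (12), by mark state, at promoters and at listed genes (20). The members and the lists were chosen with earlier results of these data known, and the splits by height were chosen after seeing the data.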

Additional observations from a re-analysis of the deposited data

How the results depend on the processing

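No paired analysis was possible because the labels give 1 library per group. The number of regions was 686 with a score of at least 100 in every list and 472 with a summit height of at least 15 tags, and stayed within 1.5 times of 1448 in the other settings. A stricter limit also removes NanogBiD peaks, so different regions qualify: of the 1448, only 126, 99 and 70 were overlapped with the score limit, the 20000 highest-scoring peaks and the height limit, against 1351 when gaps of 500 bp were bridged and 1006 with windows of 100 bp around summits. Their share of NanogWT FLAG and BRG1 regions was 5.00% (score), 13.7% (20000 peaks), 4.74% (height), 5.33% (gaps) and 9.76% (summit windows). H3K27ac was lost at 25.8% (height) and 24.9% (summit windows), and H3K4me1 at 28.4% (score), 15.2% (20000 peaks) and 27.2% (summit windows), and in all these settings both stayed above the shares lost in shared regions and gained in these. The share away from promoters was 57.7% (score), 68.0% (20000 peaks), 51.3% (height), 64.7% (summit windows) and 79.1% (promoters of 1 kb). AP-1 was found at 2.97% within 25 bp, 10.99% within 100 bp, 4.40% (20000 peaks), 4.24% (height) and 3.66% (BRG1 summit). TEAD was found at 4.70% within 25 bp, 15.3% within 100 bp and 7.47% (20000 peaks), the octamer at 0.138% within 25 bp and 1.93% (20000 peaks), and RUNX at 2.14% within 25 bp, 7.26% within 100 bp, 2.48% (score), 2.95% (20000 peaks) and 2.90% (BRG1 summit). Wider windows hold more matches by construction, and the cause of the other moves was not tested. With peak score in place of height the median change of kept marks was -0.38 for H3K27ac and -0.51 for H3K4me1.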

Other observations

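By chromosome, the share of NanogWT FLAG and BRG1 regions with neither peak in NanogBiD ran from 3.06% on X (14 of 458, 1.83 to 5.06) to 7.34% on chromosome 12 (73 of 995, 5.88 to 9.13), and 45 such regions lay on chromosome 18. Regions with an H3K27ac peak in NanogWT were in this class at 4.27% (4.01 to 4.55) and regions without one at 13.0% (11.95 to 14.03). Genes with 3 of these regions and no region shared by both arms were Adamtsl3 and Khdrbs3.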
